A study of Drosophila melanogaster with 10 samples.

Results

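Heat shock proteins and chaperones were followed in fly heads across the day. The genes were those whose symbol in the platform annotation begins with Hsp or CCT and a digit, with Hsc70 or with DnaJ, or is Hsf, stv, Stip1 or Cdc37. This gave 35 genes of the 12549 named genes on the array. Of these, 27 had a probe set that matches no other gene, and each was read from its probe set with the highest mean. The other 8 genes (Hsp22, Hsp70Aa, Hsp70Ab, Hsp70Ba, Hsp70Bb, Hsp70Bbb, Hsp70Bc and DnaJ-60) were reached only by probe sets shared between genes, which are described as shared and assigned to no single gene. All 27 genes passed the filter on low values, as did 10165 of the 11982 genes with a probe set of their own.

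RNA came from heads of the fruit fly Drosophila melanogaster, strain yw, and was hybridised to 10 Affymetrix Drosophila 2.0 arrays. Time of day is given as zeitgeber time (ZT). There were 3 arrays at ZT15 and 3 at ZT3, while ZT7, ZT11, ZT19 and ZT23 were measured once, so values at those 4 times have no replicate error. All arrays carry the label control, and the labels name no treatment, sex, age, light schedule or pooling of flies. Nothing says that replicates came from separate cultures, so the spread behind the p-values is that between these arrays and may be technical.

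Chaperones bind unfolded proteins and help them reach or keep their shape. Hsp70 proteins do so in cycles of ATP use driven by J-domain (DnaJ) partners, small heat shock proteins hold unfolding proteins in a soluble state, and the ring-shaped chaperonins enclose their substrates. Heat and other stress activate the transcription factor Hsf, which switches on the inducible Hsp genes, while the Hsc70 genes and the chaperonins are made all the time. In neurons, Hsc70 also strips the clathrin coat from synaptic vesicles.

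A level below is the natural log of the deposited intensity, which is likely a GCRMA log2 value. A difference of 1 between levels is then a 2-fold difference; if the deposited values are plain intensities, every difference is 1.44 times larger on the log2 scale. By clustering, the arrays fell into a set of 4 (ZT15 replicates 2 and 3, ZT3 replicates 1 and 2) and a set of 6 (ZT15 replicate 1, ZT3 replicate 3 and the 4 single-array times). Arrays of 1 set correlated at 0.968 to 0.992 over probe sets, and arrays of different sets at 0.720 to 0.830. Comparisons were therefore fitted once without a block and once with the array set as one. Testis genes had a list median of 4.16 on the set of 4 and 12.1 on the set of 6, and those of the accessory gland were at 3.57 and 12.8 on the same sets. The photoreceptor list of 3 genes, from the labelled tissue, had medians of 15.2 in the set of 4 and 15.1 among the other 6 arrays. The neuron and fat body lists had medians of 10.4 and 15.5 in the set of 4, and of 10.7 and 15.4 in the set of 6. Single genes of these lists differed more. The neuron gene brp was at 6.16 to 6.44 in the set of 4 and at 7.44 to 8.03 in the set of 6. The fat body gene Lsp2 was at 12.21 to 13.50 and at 8.39 to 10.57. The arrays were made from bulk RNA, in which fewer cells of a type and less RNA per cell cannot be told apart.

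Within the set of 4, some heat-inducible genes stood apart on 1 array, the second replicate of ZT3. The small heat shock gene Hsp26 reached 11.26 there, against 8.28, 8.45 and 8.49 on the other 3 arrays of the set of 4 (ZT3 replicate 1 and ZT15 replicates 2 and 3). Hsp27, a second small heat shock gene, was at 10.40 there and at 8.28, 8.02 and 8.18 on the same 3 arrays. Hsp68, an inducible relative of Hsp70, was at 9.74 there and at 7.42, 7.68 and 7.92 on the others. All 3 genes were highest of all 10 arrays on ZT3 replicate 2, and the other 3 arrays of its set lay close together. For Hsp26 the distance to the next array of the set was 2.77, a 6.82-fold difference, and for Hsp27 and Hsp68 it was 2.13 and 1.81. The set of 6 came nearer, with up to 10.71 for Hsp26 and 10.14 for Hsp27 (both ZT11) and 8.61 for Hsp68 (ZT7).

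The inducible Hsp70 genes are near-identical copies, so their probe sets cannot say which copy was measured. The probe set shared by Hsp70Ba, Hsp70Bb, Hsp70Bbb and Hsp70Bc stood at 11.09 on ZT3 replicate 2 and at 6.64, 6.97 and 7.09 on the rest of the set of 4. The one shared by Hsp70Aa and Hsp70Ab stood at 11.52 there and at 7.46, 7.62 and 7.83 on the rest. A probe set shared by Hsp70Bb and Hsp70Bc read 9.50 there and 6.55, 5.6 and 5.6 on the rest. In the set of 6 these 3 probe sets lay at 7.16 to 8.07, 7.47 to 8.32 and 5.07 to 5.78, so no array there came near ZT3 replicate 2. The distances to the next array of the set were 4.0, 3.69 and 2.95, or 16-fold, 12.9-fold and 7.71-fold. A further probe set shared by the 4 Hsp70B genes averaged 3.05 over all arrays and was not tested.

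Ranked by this distance over all 12991 probe sets, the 3 shared Hsp70 probe sets took ranks 1, 2 and 3, Hsp26 rank 4, Hsp27 rank 7 and Hsp68 rank 10. Rank 5 was lncRNA:alphagamma-element:CR32865, a transcript known from the Hsp70 locus and made under heat, with a distance of 2.66. That transcript was singled out after its values were seen. Ranks 6, 8 and 9 were CG13428, LManIII and LManV, which the symbol rule does not take in, with distances of 2.21, 1.94 and 1.90. The flight muscle gene fln took rank 12 with 1.44. The probe set shared by Hsp22, a mitochondrial small heat shock protein, and CG4456 took rank 11 with 1.63. Of the 27 genes, 3 stood above the next array of the set by more than 1 on ZT3 replicate 2, as did 0.377% of all probe sets, and 2 did so by more than 2, as did 0.0539%. Without such a margin, 8 of the 27 were highest of their set there, beside 25.1% of all probe sets. The other arrays of the set had 35 (ZT3 replicate 1), 154 (ZT15 replicate 2) and 39 (ZT15 replicate 3) such probe sets at the limit of 1, with 0, 1 and 0 of the 27 genes among them. The array, the distance and its limits were picked after the high values of these genes were seen. The ranks and shares are therefore a description and say nothing about rarity. They describe 1 array and have no replicate check.

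**Figure D1:**
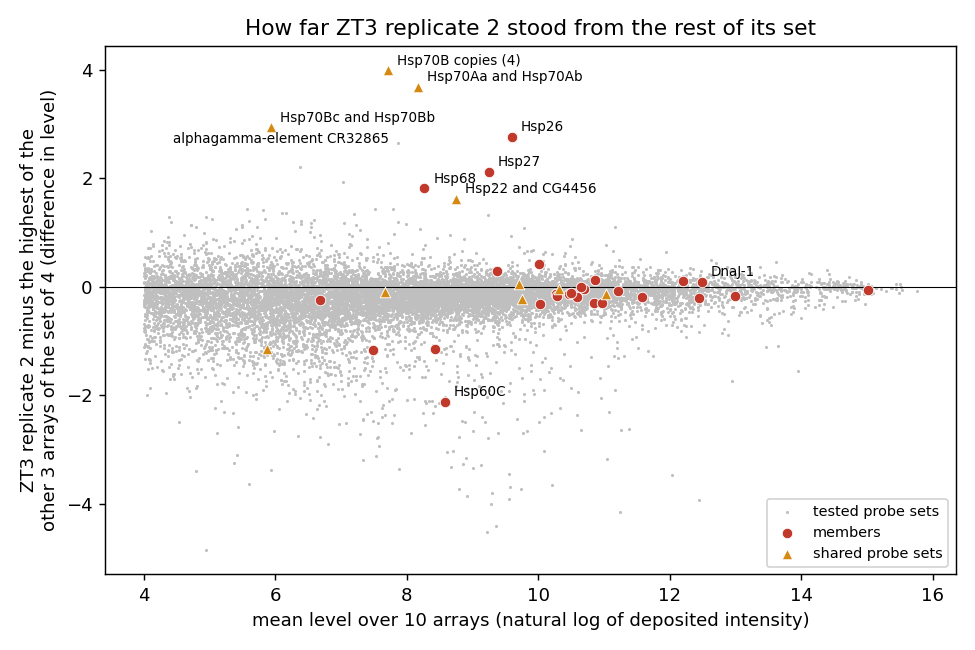
Each point is a probe set, with its mean level over 10 arrays across and, upward, the level on ZT3 replicate 2 minus the highest of the other 3 arrays of the set of 4 (red circles are the 27 genes, orange triangles the shared probe sets, grey dots all others tested). The 3 labelled Hsp70 probe sets, Hsp26, Hsp27 and Hsp68 lie between 1.81 and 4.0 above the zero line, while the probe set shared by CG31343, Hsp70Bb and Hsp70Bc lies at -0.23.

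Among the other stress genes read here, Hsf, stv, DnaJ-1 and l(2)efl did not stand apart on that array. Hsf was at 10.67 on ZT3 replicate 2 and at 10.77, 10.64 and 10.86 on the other arrays of the set. The BAG-domain cochaperone stv, which acts on Hsp70, was at 10.74 there and at 11.04, 10.74 and 10.60 on the others. DnaJ-1, a J-domain partner of Hsp70 that is itself heat-inducible, was at 12.86 there and at 12.16, 12.68 and 12.77 on the others, only 0.092 above the next array. It was still the highest of all 10 arrays for DnaJ-1, and the set of 6 reached 12.52. The small heat shock gene l(2)efl, which the symbol rule does not take in, was at 12.54 there and at 12.71, 12.49 and 12.71 on the others. Thus the high levels on this array covered 3 shared Hsp70 probe sets, Hsp26, Hsp27, Hsp68 and 1 of the Hsp22 probe sets, but not every heat-inducible gene measured. Hsp83, Hsp23 and the Hsp67B genes had no named probe set in the annotation and were not analysed. A further probe set, shared by Hsp70Bb and Hsp70Bc with CG31343, stood at 8.94 on ZT3 replicate 2 and at 9.17 on ZT3 replicate 1.

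Hsp26 and Hsp27 also varied in the set of 6. Hsp26 stood at 10.49 at ZT3, 9.85 at ZT7, 10.71 at ZT11, 9.43 at ZT15, 9.94 at ZT19 and 9.10 at ZT23 there. Hsp27 stood at 10.01, 9.69, 10.14, 9.12, 9.87 and 8.72 at the same times. Both genes thus had the same order of arrays, highest at ZT11 and lowest at ZT23, an order that 27 probe sets (0.208%) showed. That order was taken from Hsp26 after its values were seen, and both genes are among those 27 probe sets. Hsp68 had another order, with 8.38, 8.61, 8.06, 8.13, 8.42 and 8.25 at these times, lowest at ZT11. The first Hsp22 probe set was different again, at 9.69 on ZT15 replicate 1 and 9.82 on ZT19, close to its 9.93 on ZT3 replicate 2, and between 7.98 and 8.85 on the other 4 arrays of the set of 6. With 1 array per time within that set, time of day and array cannot be told apart.

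**Figure D2:**
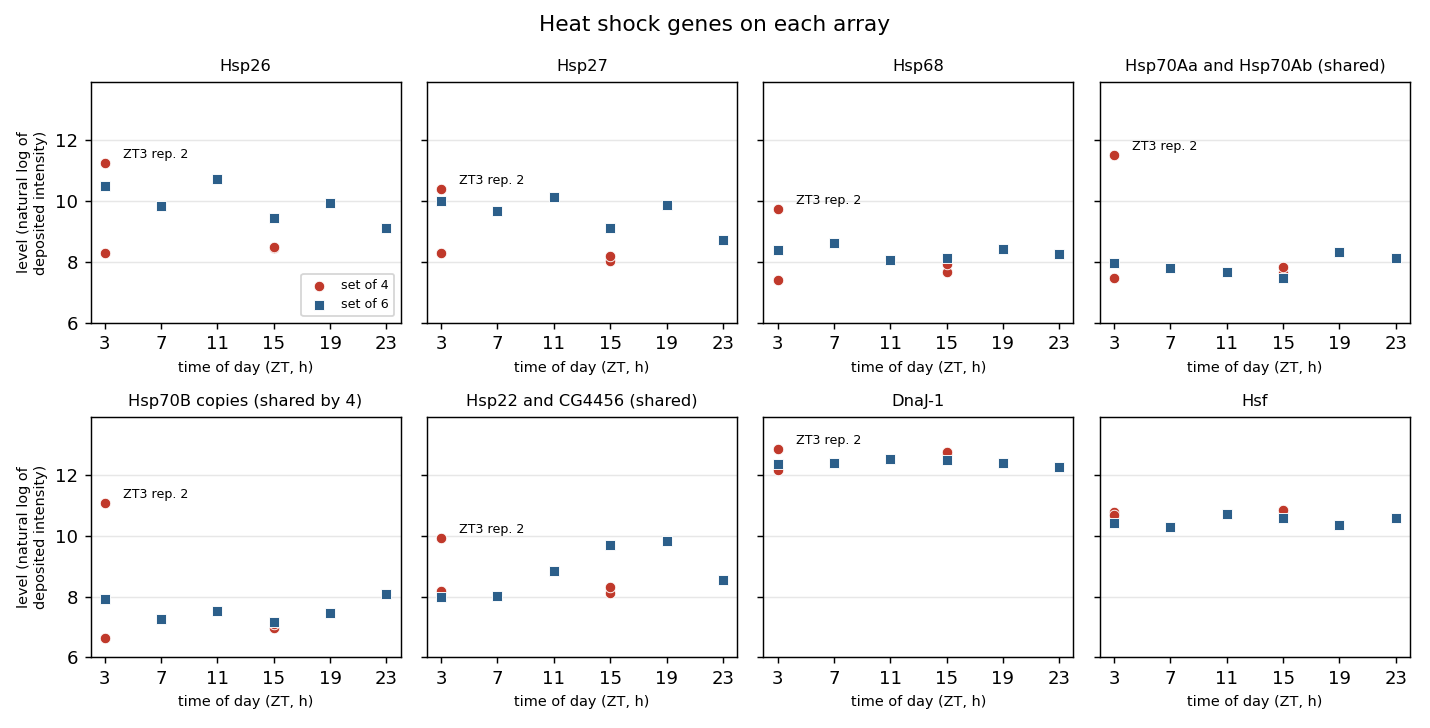
Level (natural log of deposited intensity) of 8 stress genes or shared probe sets on each array, plotted against time of day in ZT hours; red circles are the set of 4 and blue squares the set of 6. ZT3 replicate 2 is labelled in all panels but that of Hsf, where it lies among the others at 10.67. It stands above all other arrays for Hsp26, Hsp27, Hsp68 and both Hsp70 probe sets. By less it is also the highest for the probe set of Hsp22 and CG4456 (9.93, ZT19 at 9.82) and for DnaJ-1 (12.86, ZT15 replicate 3 at 12.77).

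ZT15 against ZT3 is the one comparison of times with replicates, and no chaperone gene passed its threshold. The limma test adjusted over all probe sets (Benjamini-Hochberg, threshold 0.05) called 0 of the 27 genes without the block, where it called 0.0308% of all probe sets, and 0 with the block, where it called 0.154%. At an unadjusted p under 0.05 it took 0 of the 27 without the block, beside 1.81% of all, and 1 with it, beside 9.6%. The median difference, ZT15 minus ZT3, was -0.033 over the 27 genes and 0.0061 over all probe sets, and 18 of the 27 lay below 0, as did 48.6% of all probe sets.

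The inducible genes had the widest intervals. Hsp26 was at 9.43, 8.45 and 8.49 on the ZT15 arrays (replicates 1 to 3) and at 8.28, 11.26 and 10.49 on the ZT3 arrays. The groups overlapped, with means of 8.79 ± 0.56 at ZT15 and 10.01 ± 1.54 at ZT3 (SD, n = 3 each), a difference of -1.22 with a 95% interval of -3.16 to 0.72 (limma with the block, adjusted p = 0.698). Hsp27 was at 9.12, 8.02 and 8.18 at ZT15 and at 8.28, 10.40 and 10.01 at ZT3, a difference of -1.12 with an interval of -2.53 to 0.29 (adjusted p = 0.617). Without ZT3 replicate 2 the differences were -0.60 for Hsp26 and -0.70 for Hsp27, or -0.35 and -0.48 with the block. Hsp68, at 8.13, 7.68 and 7.92 at ZT15 and at 7.42, 9.74 and 8.38 at ZT3, had a difference of -0.60 that turned to 0.015 without that array, and to 0.12 with the block. The differences of the shared Hsp70 probe sets rested on the same array. They were -1.47 for the 4 Hsp70B genes, -1.34 for Hsp70Aa and Hsp70Ab and -1.77 for Hsp70Bb and Hsp70Bc, with adjusted p-values of 0.770, 0.775 and 0.612 with the block. Without ZT3 replicate 2 they were -0.20, -0.07 and -0.62, or -0.10, -0.06 and -0.74 with the block.

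Hsc70-1, a member of the constitutive Hsp70 class, was the gene taken at the unadjusted level. It was at 8.98, 8.78 and 8.91 at ZT15 and at 8.99, 9.29 and 9.58 at ZT3. All ZT15 arrays lay below all ZT3 arrays, though the nearest pair, 8.98 and 8.99, was almost level. Among the 27 genes, 1 was without overlap and lower at ZT15, beside 2.42% of all probe sets, and 0 were without overlap and higher, beside 2.71%. The difference was -0.40 (95% interval -0.74 to -0.05, adjusted p = 0.470 with the block). The other probe sets of the gene gave -0.37 and -0.27 with overlapping arrays, and adjusted p-values of 0.331 and 0.572.

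Of the other Hsp70-class genes, Hsc70-2 had the widest interval, with a difference of -0.32 (-1.12 to 0.48). It was at 8.64, 5.15 and 5.04 at ZT15 and at 5.90, 4.74 and 9.16 at ZT3, so the spread within a time far exceeded the difference. Hsc70-4, the main cytosolic Hsc70, was at 15.07, 14.97 and 14.96 at ZT15 and at 15.05, 14.99 and 14.90 at ZT3, a difference of 0.02 with an interval of -0.23 to 0.27. Hsc70-3, the BiP chaperone of the endoplasmic reticulum, was at 13.24, 12.56 and 12.57 at ZT15 and at 12.97, 12.81 and 13.17 at ZT3, and its difference was -0.20 (-0.52 to 0.13). The arrays of the times overlapped for both genes. Hsc70-5, which works in mitochondria, was at 12.44, 12.53 and 12.57 at ZT15 and at 12.64, 12.45 and 12.26 at ZT3 (difference 0.06, -0.21 to 0.34). Hsp110, a nucleotide exchange factor of Hsp70, was at 9.99, 10.32 and 10.26 at ZT15 and at 10.16, 9.998 and 9.84 at ZT3 (difference 0.19, -0.06 to 0.44).

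Among the regulators and cochaperones, differences were small and arrays overlapped. The ZT15 arrays read 10.59, 10.64 and 10.86 for Hsf and the ZT3 arrays 10.77, 10.67 and 10.42, a difference of 0.07 (-0.21 to 0.35). stv was at 10.91, 10.74 and 10.60 at ZT15 and at 11.04, 10.74 and 11.21 at ZT3, a difference of -0.25 (-0.56 to 0.06). DnaJ-1 was at 12.48, 12.68 and 12.77 at ZT15 and at 12.16, 12.86 and 12.37 at ZT3, a difference of 0.18 (-0.33 to 0.68). The second J-domain gene, DnaJ-H, differed by 0.07 (-0.26 to 0.41), and its within-set differences went opposite ways, 0.23 for the set of 4 and -0.24 for the set of 6. Stip1, the adaptor between Hsp70 and Hsp90, differed by -0.02 (-0.31 to 0.26), and Cdc37, which brings kinases to Hsp90, by 0.02 (-0.29 to 0.33).

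The Hsp60 class had intervals of very different width. Hsp60C had the highest difference of the 27 genes, 0.58 (-0.80 to 1.96), which was 1.13 within the set of 4 and -0.51 within the set of 6. Hsp60B differed by -0.09 (-1.25 to 1.07) and Hsp60D by -0.01 (-0.40 to 0.38). Hsp60A was at 12.18, 11.99 and 12.12 at ZT15 and at 12.10, 12.23 and 12.34 at ZT3, a difference of -0.13 (-0.38 to 0.13). The arrays of the times overlapped for all 4 genes. Their fitted amplitudes in the 24-hour cosine were 0.31 for Hsp60C, 0.11 for Hsp60B, 0.06 for Hsp60A and 0.01 for Hsp60D.

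**Figure D3:**
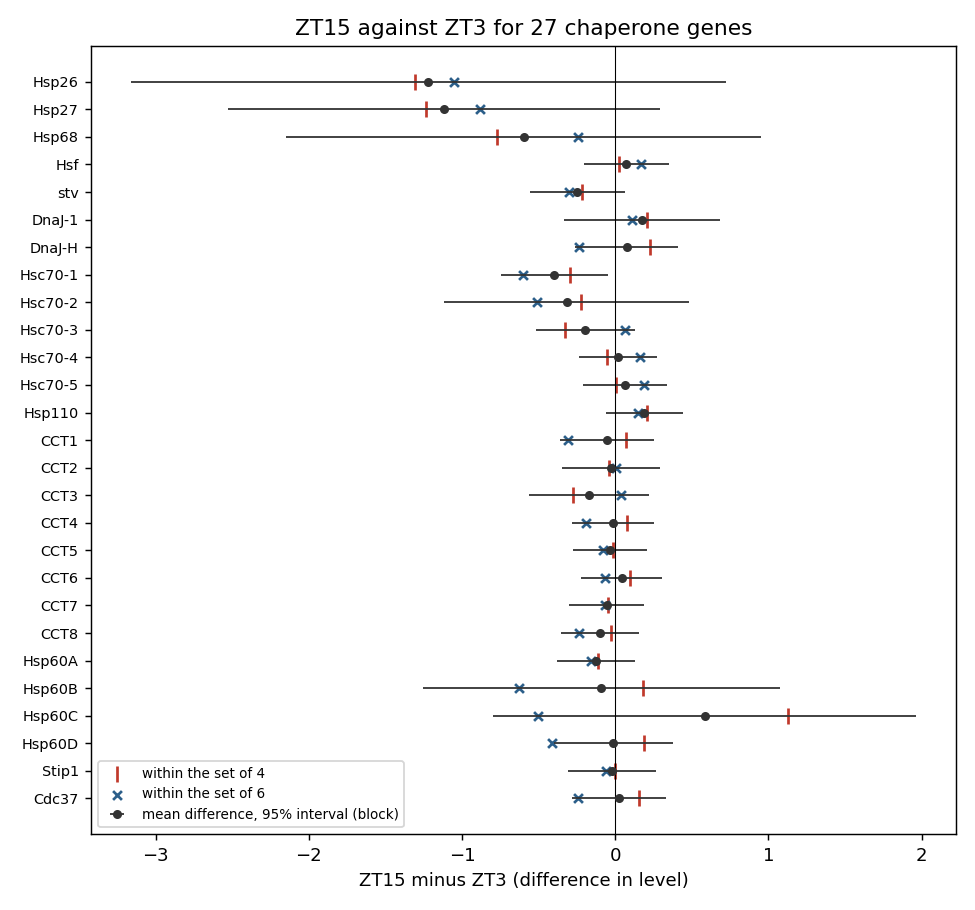
ZT15 minus ZT3 (difference in level) for the 27 genes, with black points for the mean difference and lines for its 95% interval from the limma fit with the array set as a block; red bars and blue crosses are the differences within the set of 4 and within the set of 6. The intervals of Hsp26, Hsp27 and Hsp68 are among the widest, and only that of Hsc70-1, from -0.74 to -0.05, leaves out 0.

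A cosine with a period of 24 hours, fitted to all 10 arrays, also called 0 of the 27 genes. It called 0.0385% of all probe sets without the block and 0.508% with it (limma F test, adjusted p under 0.05). At an unadjusted p under 0.05 it took 0 of the 27 genes without the block, beside 1.61% of all probe sets, and 3 with the block, beside 7.91%. Those 3 were CCT6, CCT8 and CCT7, with unadjusted p-values of 0.031, 0.033 and 0.036 and adjusted p-values of 0.547, 0.562 and 0.576. All 3 had a fitted peak between ZT8 and ZT10. An unadjusted p under 0.05 together with such a peak was found for 0.516% of all probe sets. The window fits the peaks of these same genes, so that share is a description and says nothing about rarity.

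The 8 subunits CCT1 to CCT8 build one cytosolic chaperonin, the ring that folds actin and tubulin, and their profiles were alike. CCT8 stood at 11.02 at ZT3, 10.81 at ZT7, 11.19 at ZT11, 10.78 at ZT15, 10.50 at ZT19 and 10.46 at ZT23 in the set of 6. CCT6 stood at 10.64, 10.48, 10.79, 10.57, 10.17 and 10.06 at these times, and CCT7 at 10.74, 10.61, 11.01, 10.67, 10.40 and 10.17. All 3 were highest at ZT11 and lowest at ZT23. CCT1 (10.77, 10.44, 10.94, 10.47, 10.29 and 10.07), CCT4 (10.71, 10.47, 10.87, 10.52, 10.28 and 10.13) and CCT5 (11.50, 11.32, 11.60, 11.43, 11.06 and 10.99) had their highest and lowest arrays at the same times, as did CCT2 (11.76, 11.62, 12.13, 11.77, 11.61 and 11.47). CCT3 (10.53, 10.35, 10.58, 10.57, 10.08 and 10.15) was highest at ZT11 by only 0.01 and lowest at ZT19.

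On ZT11 all 8 subunits were highest of all 10 arrays, as were 8.03% of all probe sets, and 7 of 8 were both highest at ZT11 and lowest at ZT23 within the set of 6, as were 4.07%. The difference ZT11 minus ZT23 ran from 0.43 to 0.87 with a median of 0.73, and over all probe sets its median was 0.025. Fitted amplitudes ran from 0.20 to 0.31 (0.31 for CCT7, 0.30 for CCT6 and CCT8), and fitted peaks from ZT7.85 to ZT9.66; the median amplitude over all probe sets was 0.13. For 7 of 8 subunits the fitted peak fell between ZT8 and ZT10, the window that fits these same peaks, as it did for 12.2% of all probe sets. After quantile normalization or median centring the set of 6 was highest at ZT11 for 7 of 8, with CCT3 the exception. The smooth fit does not describe all the arrays, since each subunit was lower at ZT7 than at ZT3 and ZT11 in the set of 6.

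The subunits share the arrays and so are not replicates of one another. The times ZT11 and ZT23 in the counts above were picked after the values were seen. The single ZT11 array also carried RNA of ovary markers: the median of the 5 listed ovary genes was 8.83 there and 3.81 to 3.98 on the other arrays of the set of 6, with 4 of the 5 genes highest of that set on ZT11. On the set of 4 the median was 3.90 to 4.90. The eggshell genes Cp36 and Cp38 were at 10.60 and 9.01 on ZT11, and at 3.64 to 3.99 and 3.71 to 3.98 on the others of that set. The oocyte determinant osk was at 8.83 on ZT11, at 6.74 on ZT3 replicate 3, which was the next highest array of its set for 6 of 8 subunits, and at 3.08 to 3.26 on the others. Cp18 was highest at ZT3 in that set, and bcd was at 4.34 on ZT11 and at 3.67 to 4.08 on the others. Flight muscle genes varied too, with a list median of 11.1 on ZT11 and a range of 5.96 to 11.99 in the set of 6. The part of these cells in the CCT profiles, or in those of Hsp26 and Hsp27, was not tested.

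Within the set of 4, which holds only ZT15 and ZT3, the subunits differed little. CCT8 was at 10.47 and 10.40 on ZT15 replicates 2 and 3 and at 10.47 and 10.46 on ZT3 replicates 1 and 2. CCT7 was at 10.90 and 10.75 at ZT15 and at 10.88 and 10.87 at ZT3 there. CCT3 was at 9.31 and 9.32 at ZT15 and at 9.37 and 9.80 at ZT3. Over all 6 arrays of both times, ZT15 minus ZT3 ran from -0.17 (CCT3) to 0.04 (CCT6), with -0.10 for CCT8 and -0.05 for CCT7. The groups overlapped for all 8, and the 95% intervals with the block lay within -0.56 to 0.31.

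**Figure D4:**
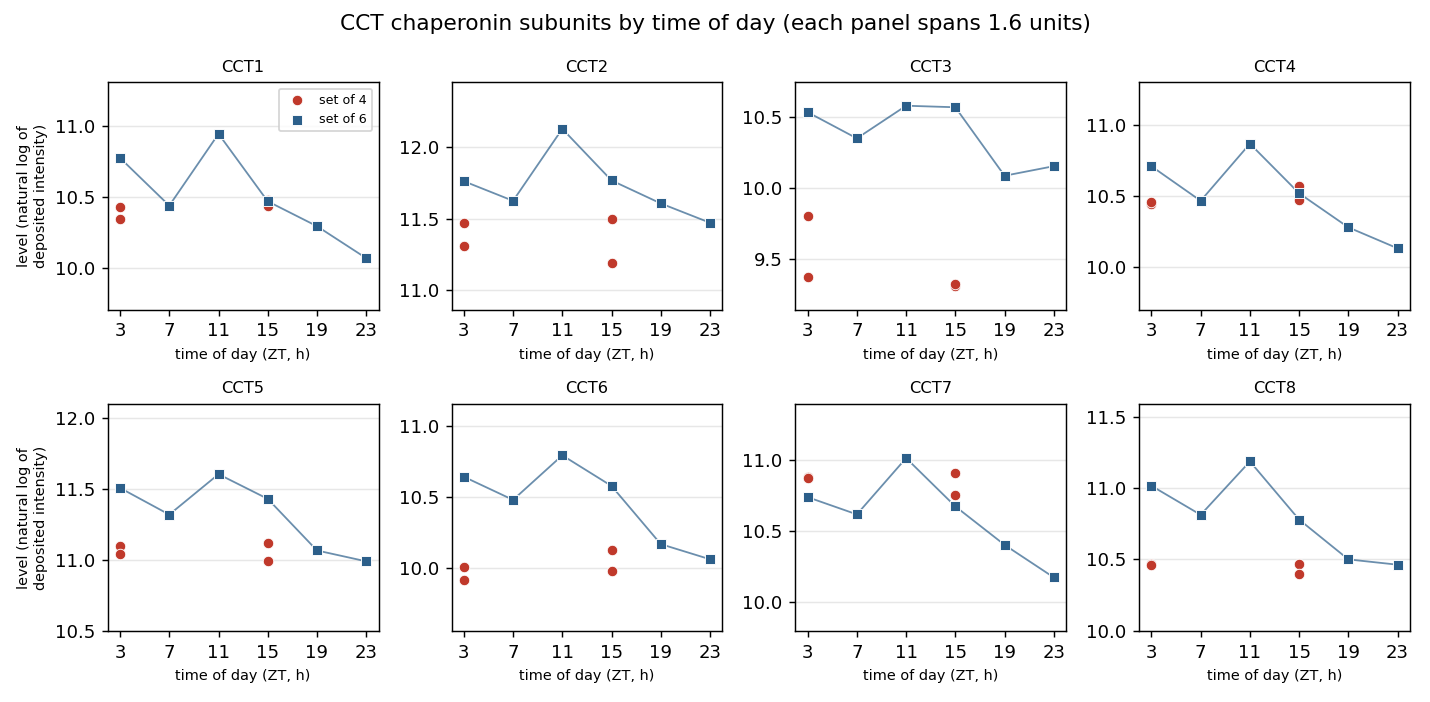
Level (natural log of deposited intensity) of the 8 CCT subunits by time of day in ZT hours, with red circles for the set of 4 and blue squares joined by lines for the set of 6; every panel spans the same height. The ZT11 array is the highest of all 10 in each panel, by only 0.01 for CCT3, and ZT23 is the lowest of the set of 6 in all but CCT3.

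Of the 27 genes, 10 had a fitted peak between ZT8 and ZT10, beside 12.2% of all probe sets, and 7 of these were CCT subunits. The other 3, Stip1 (ZT9.33), Hsc70-4 (ZT9.53) and Cdc37 (ZT9.72), were few enough to lie near that share. Stip1 stood at 11.09, 11.07, 11.24, 11.03, 10.88 and 10.62 from ZT3 to ZT23 in the set of 6, with an amplitude of 0.24 (adjusted p = 0.683 with the block). Cdc37 stood at 10.45, 10.26, 10.37, 10.21, 10.14 and 10.13, with an amplitude of 0.10. In the set of 6, 19 of the 27 genes were lowest at ZT23, as were 23.3% of all probe sets, Stip1 and Cdc37 among them; Cdc37 was highest at ZT3, not ZT11. Hsf stood at 10.42, 10.29, 10.71, 10.59, 10.34 and 10.57 at these times, with an amplitude of 0.05. The amplitudes of DnaJ-1 and DnaJ-H were 0.12 and 0.05.

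Among the 27 chaperone genes, Hsp60C, Hsp60B, Hsc70-2 and Hsp60D differed most between the array sets. Hsp60C was at 5.62 and 4.04 on the ZT15 arrays and 3.90 and 3.50 on the ZT3 arrays of the set of 4, and at 10.87 to 11.97 in the set of 6. Hsp60B, a chaperonin gene needed for the separation of spermatids, was at 6.48 and 4.88 on the ZT15 arrays and 5.66 and 5.34 on the ZT3 arrays of the set of 4, and at 9.81 to 10.88 in the set of 6. Hsp60D was at 4.27 to 4.51 on the set of 4 and at 7.75 to 8.70 in the set of 6. Hsc70-2 was at 4.74 to 5.90 on the set of 4 and at 8.37 to 9.59 in the set of 6. The mean differences, set of 4 minus set of 6, were -7.20 for Hsp60C, -4.73 for Hsp60B, -3.80 for Hsc70-2 and -3.79 for Hsp60D. The sets were found by clustering these same values, so the differences are a description and have no test.

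Of the 27 genes these 4 were lower in the set of 4 by more than 2, as were 11.2% of all probe sets, and 0 were higher by more than 2, as were 1.73%. Without overlap between the sets, 7 of the 27 were lower in the set of 4, as were 22% of all probe sets, and 2 were higher, as were 33.3%. The next largest differences were -0.93 for CCT3, -0.87 for Hsp27, -0.80 for Hsp26 and -0.64 for Hsc70-1. Hsp60A, the mitochondrial chaperonin of most tissues, had means of 12.11 (set of 4) and 12.27 (set of 6), unlike the other Hsp60 genes.

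The 4 genes were low on the same arrays as the testis markers. All 10 testis genes measured were lower in the set of 4 by more than 2, as were all 9 accessory gland genes. Within the set of 4, the testis median was 6.03 on ZT15 replicate 2 and 3.93 to 4.14 on the other 3 arrays, and Hsp60B and Hsp60C were also highest of that set on ZT15 replicate 2, whereas Hsc70-2 was highest on ZT3 replicate 1 (5.90) and Hsp60D on ZT15 replicate 3 (4.51). Within the set of 6, Hsp60B and Hsp60C had the same order of arrays as the testis median, from ZT7 down to ZT23, an order that 323 probe sets (2.49%) showed, and Hsc70-2 and Hsp60D had other orders. The part of testis RNA in the levels of these genes was not tested. A second probe set shared by Hsp22 and CG4456 differed in the same direction, by -2.998, and one shared by CG31343, Hsp70Bb and Hsp70Bc by -3.65. The probe set of CG31343, Hsp70Bb and Hsp70Bc read 10.995, 6.38 and 5.73 at ZT15 and 9.17, 8.94 and 11.63 at ZT3, a difference of -2.21 with overlapping arrays (adjusted p = 0.318 with the block).

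**Figure D5:**
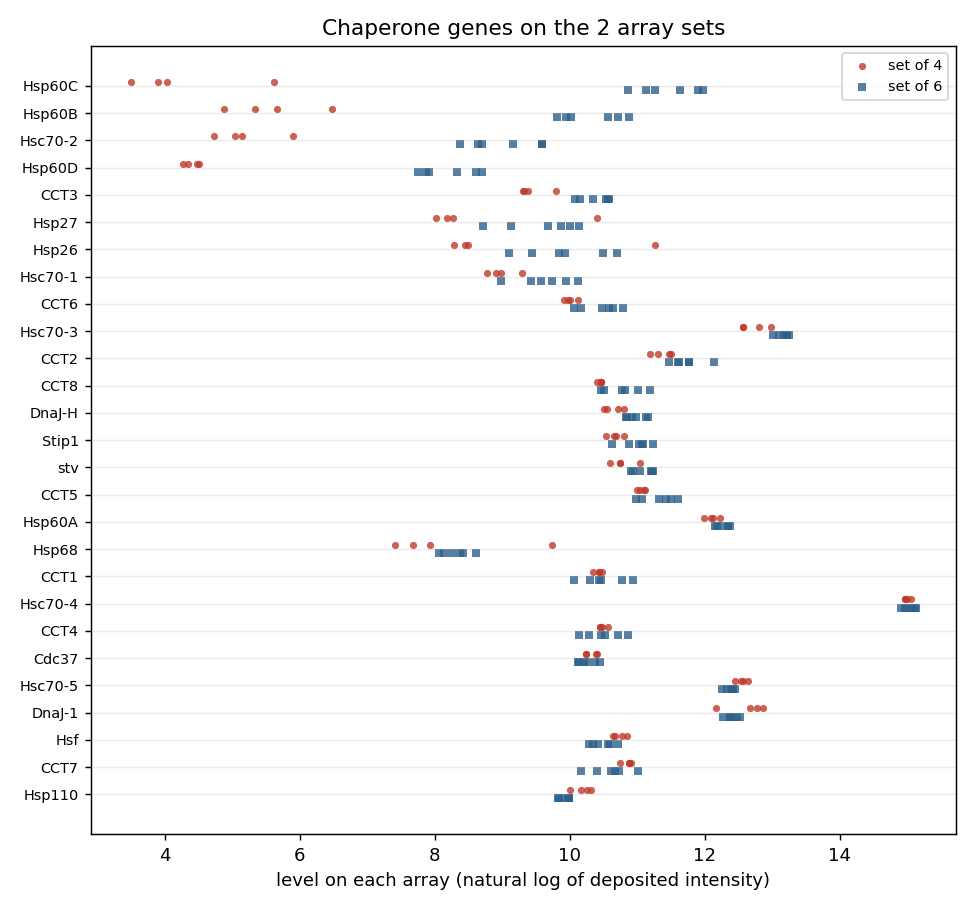
Level (natural log of deposited intensity) of the 27 genes on each of the 10 arrays, with red circles for the set of 4 and blue squares for the set of 6, ordered by the difference between the set means. Hsp60C, Hsp60B, Hsc70-2 and Hsp60D at the top are separated by wide gaps. Hsp26, Hsp27 and Hsp68 each have 1 red point, ZT3 replicate 2, far to the right of the other red points. Blue squares lie nearer to it.

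Partner genes outside the symbol rule were read from the same fits. Their median ZT15 minus ZT3 was -0.067 for 15 tested further cochaperones, -0.023 for 16 genes of folding and the unfolded protein response in the endoplasmic reticulum, 0.015 for prefoldin, which hands actin and tubulin to the CCT ring, and -0.061 for oxidative stress, beside 0.0061 over all probe sets. None of these genes (6 for prefoldin and 9 for oxidative stress) was called in either comparison, with or without the block. Only 0.0308% to 0.508% of all probe sets were called, so nothing is read from a count of 0 in lists this short. Of the prefoldin subunits, 2 of 6 were highest of the set of 6 at ZT11, beside 22.6% of all probe sets, against 8 of 8 CCT subunits and 16 of the 27 chaperone genes. The difference between these counts was not tested.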

How the data were processed

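The authors deposited 1 intensity per probe set and array, made with GCRMA per the submitters' processing notes (version and settings: not given in the sources used here). Deposited intensities reach 8527860, above the 65536 levels of a scanner, so they are likely GCRMA log2 values raised to base e, and their natural log was used. The platform annotation gave 13647 probe sets 1 gene symbol, 402 several and 4720 none here; 183 controls were left out. A mean level of 4 or more (a deposited intensity of 54.6) was required, which left 12991 probe sets to test.

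The comparison of ZT15 with ZT3 used 6 arrays and the 24-hour cosine 10, both with limma 3.58.1 (lmFit, eBayes) in R 4.3.3 and Benjamini-Hochberg adjustment over all probe sets, after a test on simulated data. The array set was a block in a second fit. The number of arrays limits the precision.

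The members, gene lists and tests were chosen with earlier results of these data known. Values are given for the inducible, Hsf and Hsc70 genes, for the 3 largest differences and amplitudes per other role, and for the 8 largest differences between sets. Genes measured only by a shared probe set are given by that probe set, and genes with no named probe set were not analysed here. Alternatives covered the filter, scale, normalization, variance prior, blocks and left-out arrays.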

Additional observations from a re-analysis of the deposited data

How the results depend on the processing

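The number of chaperone genes past the threshold was 0 for ZT15 against ZT3 and for the cosine under every alternative run. No alternative called more than 72 probe sets in all, so nothing is read from a count of 0 in a list this short. The median ZT15 minus ZT3 over all probe sets moved by 0.0089 under quantile normalization and by 0.028 under median centring. Over all probe sets, ZT15 against ZT3 called 4; with the array set as a block it called 20, within the set of 4 alone 0, and with arrays left out between 0 and 5. The cosine called 5, with the array set as a block 66, after quantile normalization 3, with a trended and robust variance 9, over the set of 6 alone 0, and with arrays left out between 2 and 72. The causes were not tested. Without the block, leaving out any 1 array gave 0 calls for ZT15 against ZT3 and 2 to 4 for the cosine; with it, 0 to 5 and 13 to 72. Leaving out ZT3 replicate 2 gave 0 calls without the block and 5 with it for ZT15 against ZT3, and 2 and 16 for the cosine.

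Same-numbered ZT15 and ZT3 arrays had correlations of -0.893, 0.804 and -0.903 (replicates 1, 2 and 3). They were taken on each array's departure from the mean of its time, not on levels. Numbers 1 and 3 cross the array sets and number 2 lies within one, so these signs follow the sets and do not show whether the numbers pair the samples; the labels do not say so, and no pairing was used. With the replicate block, 0 probe sets and 0 chaperone genes were called.

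No chaperone difference, ZT15 minus ZT3, passed the threshold, and those of 19 genes changed sign under some alternative. Under median centring the value was 0.0012 for CCT2, 0.014 for CCT4, 0.015 for Hsp60D and 0.0060 for Stip1, and Hsc70-4 had -0.026 after quantile normalization. Within the set of 4 it was -0.053 for Hsc70-4, 0.073 for CCT1, 0.074 for CCT4, 0.18 for Hsp60B and 0.19 for Hsp60D. With arrays left out, it ran from -1.21 to 0.12 for Hsp68, -0.027 to 0.15 for Hsf, -0.033 to 0.37 for DnaJ-1, -0.045 to 0.28 for DnaJ-H, -1.50 to 0.96 for Hsc70-2, -0.053 to 0.058 for Hsc70-4 and -0.032 to 0.16 for Hsc70-5. It ran from -0.14 to 0.077 for CCT1, -0.17 to 0.12 for CCT2, -0.59 to 0.14 for CCT3, -0.067 to 0.074 for CCT4, -0.16 to 0.11 for CCT5, -0.13 to 0.27 for CCT6 and -0.22 to 0.085 for CCT8. It ran from -1.51 to 1.599 for Hsp60B, -1.52 to 3.23 for Hsp60C, -1.15 to 1.33 for Hsp60D, -0.16 to 0.12 for Stip1 and -0.018 to 0.16 for Cdc37. The causes were not tested.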

Other observations

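Among stress genes outside the chaperones, TotC and Prx1 were singled out after their values were seen. TotC, which encodes a secreted stress peptide of the Turandot family and was the 1 of 5 measured family members that passed the filter, was at 10.43, 10.06 and 8.97 on the ZT15 arrays and at 12.93, 10.57 and 10.32 on the ZT3 arrays. Its highest array was thus ZT3 replicate 1, not ZT3 replicate 2 where the Hsp70 probe sets were high, and its difference of -1.46 had an adjusted p of 0.663 (limma with the block). Prx1, a peroxiredoxin gene, was at 2.63 to 2.95 in the set of 4 and at 7.13 to 8.44 in the set of 6. It was thus low on the same arrays as the testis markers, and 11.2% of all probe sets were lower in the set of 4 by more than 2. Its levels in the set of 4 lay below the filter level of 4, so it passed only through the set of 6.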
